A study of Rattus norvegicus with 9 samples.

Results

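The genes described here make, move and export cholesterol and make fatty acids. They are a list of 43 genes, taken by symbol from a table of 17588 genes, and all 43 were found in it. The list holds the regulators of sterol-responsive transcription, the enzymes of the mevalonate and sterol pathways, proteins that handle sterols inside the cell, oxysterol enzymes, the liver X receptor (LXR) and export genes, and the enzymes of fatty acid synthesis. Wild-type rat primary chondrocytes, isolated from cartilage by collagenase digestion, were profiled by poly(A) RNA sequencing in 3 groups of 3 libraries. Control cells had routine culture without IL-1β. A second group was treated with IL-1β, an inflammatory cytokine that drives cartilage breakdown, in the same culture without fibroblasts. The last group, called co-culture here, was chondrocytes that shared a transwell chamber with dermal fibroblasts of the skin after IL-1β stimulation. The fibroblasts sat in the upper chamber, so co-cultured cells differ from IL-1β cells in the presence of a second cell population behind a membrane. The dose and time of IL-1β, the age, sex and number of rats, the joint and the culture passage are not stated. Whether the 3 libraries of a group are different rats, different wells or repeats of 1 preparation is not stated either, and every p-value here rests on their spread alone, which may be technical. None of the libraries used here had fibroblast co-culture without IL-1β.

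Cells sense their own cholesterol through SREBP transcription factors, which are held in the endoplasmic reticulum by Scap and the Insig proteins when sterol is plentiful and are released to the nucleus when it is scarce. In the nucleus they raise the enzymes of cholesterol and fatty acid synthesis, and their own brake, Insig1. Surplus cholesterol is turned into oxysterols, which hold SREBPs back and activate the LXRs, and the LXRs in turn raise the exporters Abca1 and Abcg1. In cartilage, cholesterol hydroxylation by Ch25h and Cyp7b1 is known for its induction by inflammatory cytokines.

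Values are FPKM, a measure of fragments scaled for transcript length and library size, so levels can be set side by side between genes, and the read depth behind them is unknown. Library sums of FPKM were 771058 to 782435 for control, 796262 to 832248 for IL-1β and 809839 to 811665 for co-culture, and each library had 11337 to 11522 genes at 1 FPKM or more. The summed FPKM of 10 chondrocyte markers was 1930 to 2015 in control libraries, 443 to 463 with IL-1β and 624 to 680 with co-culture, and among them Matn1 was under 1 in every IL-1β and co-culture library. The 10 dermal fibroblast markers summed to 503 to 516, 587 to 591 and 524 to 550 in the same order, with Dpp4, Clec3b and Entpd1 under 1 throughout. The 12 macrophage markers summed to 28.8 to 32.5, 26.4 to 28.9 and 24.2 to 25.6, with Ptprc, Csf1r, Itgam, C1qa and C1qb under 1 throughout. The 8 adipocyte markers summed to 21.5 to 28.0 in control, 165.7 to 193.0 with IL-1β and 40.4 to 56.2 in co-culture. Fabp4, a fatty acid carrier that is not confined to adipocytes, was the largest part of it at 13.2 to 20.2, 157 to 185 and 33.6 to 49.8. Lpl, a secreted lipase, was at 4.59 to 5.31, 6.12 to 6.82 and 5.36 to 5.71, while Adipoq, Plin1, Plin4, Lep and Cidec were under 1 throughout. Pparg was highest in control, at 1.38 to 1.61, 0.65 to 0.80 and 0.34 to 0.58 in the same order. Of 8 keratinocyte and sebocyte markers, 6 were in the table and summed to 6.19 to 7.76, 58.2 to 61.5 and 20.7 to 29.5. Mgst1 made up most of this, and Krt5, Krt14, Krt1 and Krt15 were under 1 throughout. The 9 skeletal muscle markers summed to 176 to 179, 384 to 409 and 370 to 421, and 7 of 8 endothelial markers were under 1 in every library. No listed marker was at 0 in all libraries. The part of these marker shifts in the results below was not tested. In such bulk samples, fewer cells of a type and less RNA per cell cannot be told apart.

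With IL-1β, both oxysterol enzymes rose steeply, Insig1 and Insig2 rose, and Srebf1 fell, while the enzymes of cholesterol synthesis moved by small amounts. With fibroblast co-culture after IL-1β, both oxysterol enzymes and Insig1 fell, as did Hmgcs1 at the entry to the mevalonate pathway. Of the 43 genes, 41 reached 1 FPKM in at least 3 libraries and were tested with limma on log2(FPKM + 1) beside 11732 genes in all. Abcg1 and Tm7sf2 were below that filter, and Ch25h and Abca1 passed it through their IL-1β and co-culture libraries. The place of Ch25h in the counts below therefore follows in part from the filter. A gene is called higher or lower where its p-value, adjusted by Benjamini-Hochberg over all tested genes, was under 0.05. IL-1β against control gave 19 called genes of 41, or 46.3%, beside 46.7% of all tested genes. Of them 14 were higher (34.1%, beside 26.5% of all tested genes) and 5 lower (12.2%, beside 20.2%). That split depended on scaling: with libraries scaled to a common FPKM sum 9 were higher and 7 lower, beside 19.2% and 27.2% of all tested genes. Quantile normalization gave 9 and 7 as well, beside 19.5% and 28.4%. Co-culture against IL-1β gave 13 called genes, or 31.7%, beside 22.0% of all tested genes. All 13 were lower (beside 10.1% of all tested genes) and 0 were higher (beside 11.9%). At an unadjusted limma p under 0.05, 1 gene was higher and 20 were lower in that comparison, beside 19.6% and 15.0% of all tested genes. Without the second IL-1β library 1 gene, Srebf1, was called higher. The median log2 change of the 41 genes was −0.10 in that comparison, against 0.02 over all tested genes, and 30 of the 41 were below 0. For IL-1β against control the medians were 0.06 and 0.02. Co-culture against IL-1β and IL-1β against control share the 3 IL-1β libraries, so a chance deviation of those libraries enters both with opposite signs.

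**Figure D1:**
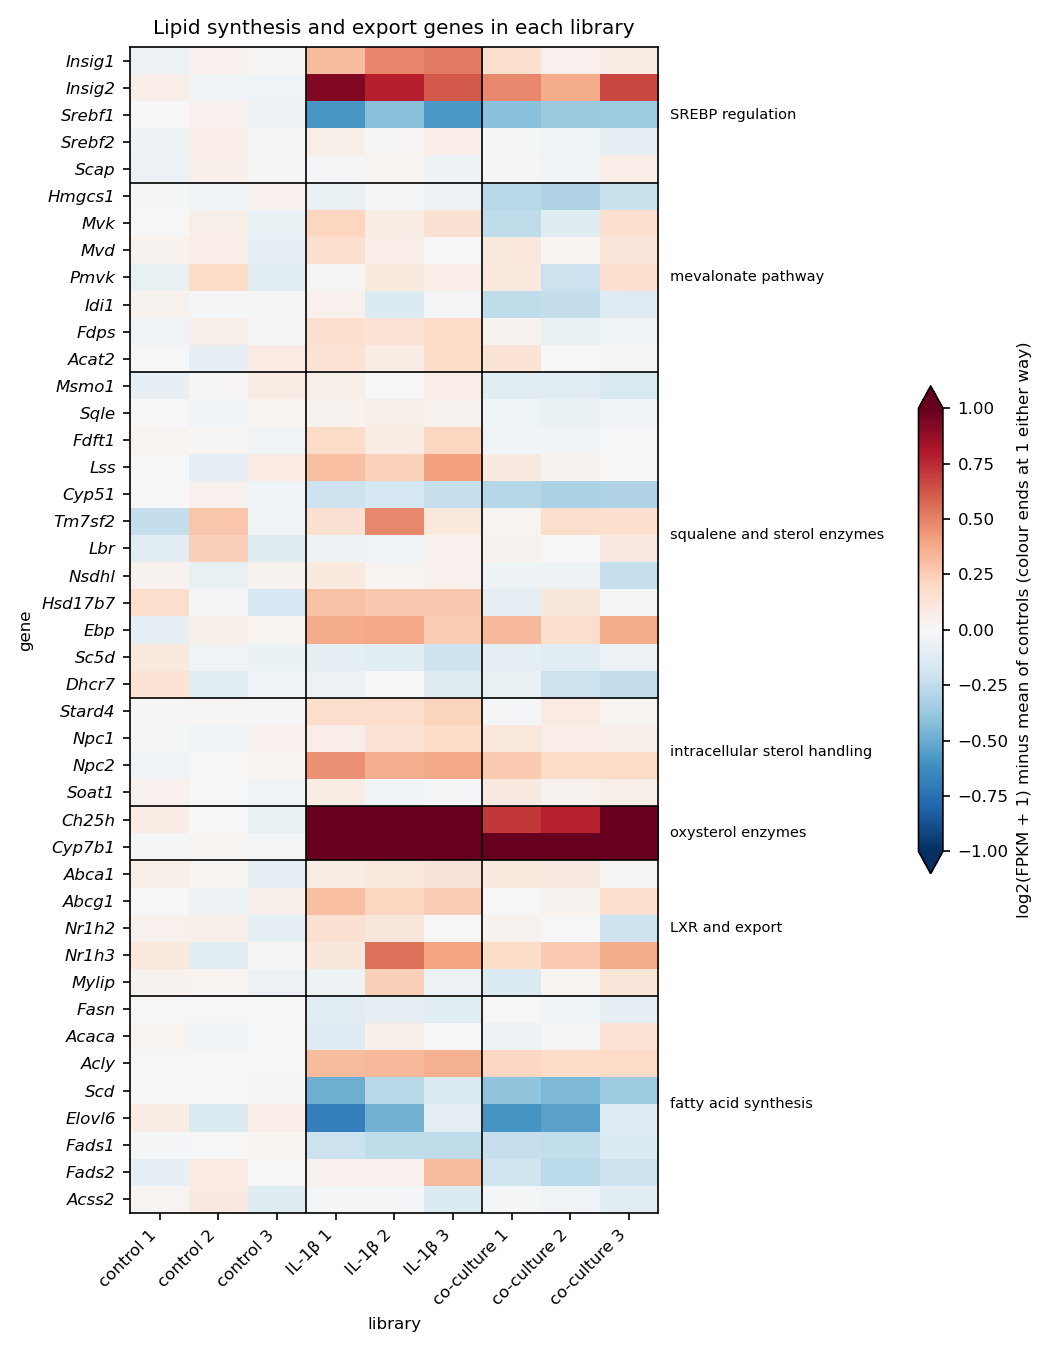
Heat map of the 43 genes (rows, by role) in the 9 libraries (columns); colour is log2(FPKM + 1) minus the mean of the 3 control libraries, with the colour scale ending at 1 either way. Ch25h and Cyp7b1 are deep red in the 3 IL-1β libraries, Insig2 is red there and Srebf1 is blue, and most sterol enzymes stay pale.

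Changes of large size were few. At a log2 change of 0.5 or more either way, IL-1β against control gave 4 called genes (9.76%, beside 12.5% of all tested genes): Ch25h, Cyp7b1, Insig2 and Srebf1. Co-culture against IL-1β gave 2 such genes (4.88%, beside 3.01%), Ch25h and Cyp7b1. Leaving these 2 oxysterol enzymes aside, the ratios of group means of the other 39 tested genes ran from 0.647 (Elovl6) to 1.80 (Insig2) for IL-1β over control, and from 0.758 (Fads2) to 1.11 (Srebf1) for co-culture over IL-1β. The libraries of the 2 groups did not overlap for 23 of 41 genes (56.1%, beside 56.4% of all tested genes) in IL-1β against control, and for 17 (41.5%, beside 37.6%) in co-culture against IL-1β. Replicates lay close together: over the 33 or 34 genes with a group mean of at least 5 FPKM, the median coefficient of variation was 4.22% for control, 3.96% for IL-1β and 3.81% for co-culture.

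**Figure D2:**
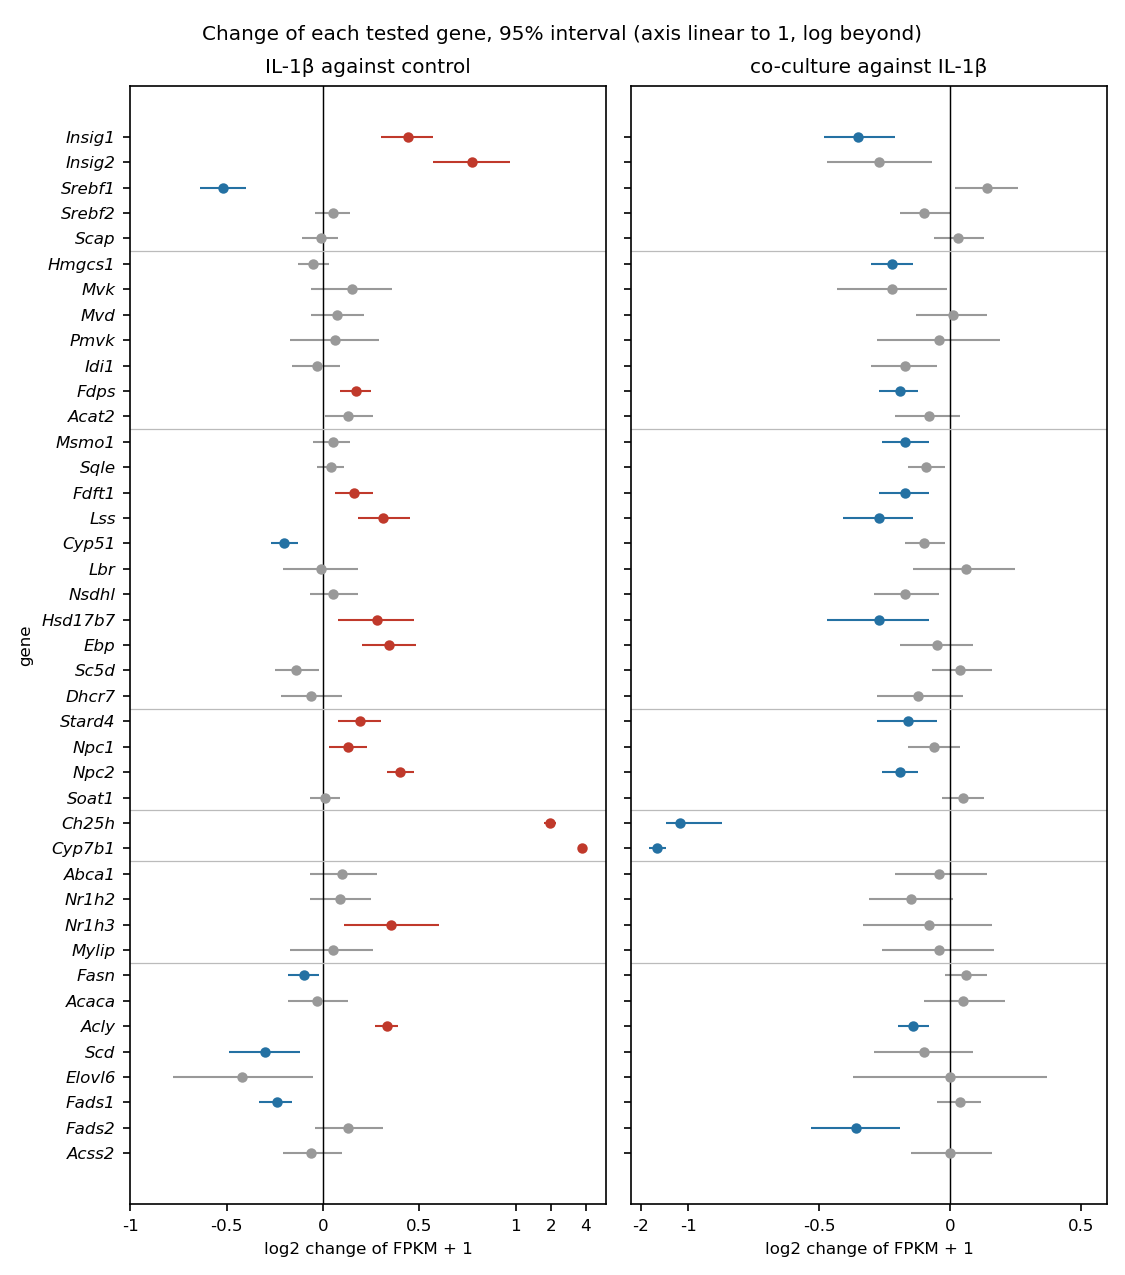
Log2 change of FPKM + 1 (x axis, linear to 1 and logarithmic beyond) for each of the 41 tested genes (y axis, by role), with 95% intervals, for IL-1β against control (left) and co-culture against IL-1β (right). Red points are called higher, blue lower and grey not called; Cyp7b1 at 3.74 and Ch25h at 1.99 stand far to the right on the left panel, and on the right panel the coloured points are all blue.

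The oxysterol enzymes carried the widest change of the list. Cyp7b1 (gene ID 25429), the hydroxylase that inactivates oxysterols on the way to bile acids, was at 1.76, 1.85 and 1.77 FPKM in the control libraries, 38.80, 34.40 and 35.85 with IL-1β, and 10.54, 10.57 and 13.65 in co-culture. The 3 groups did not overlap, and co-culture lay between the others. Its mean rose 20.3-fold with IL-1β, from 1.79 ± 0.0493 to 36.4 ± 2.24 (SD, n = 3 libraries), a log2 change of 3.74 with a standard error of 0.088 (limma adjusted p = 4.09e-10), the 37th highest of the 11732 tested genes. In co-culture it was 11.6 ± 1.79, 3.14-fold below IL-1β (log2 change −1.58, adjusted p = 2.28e-06), and still 6.46-fold above control (2.16, adjusted p = 5.64e-08). Ch25h (gene ID 309527), which hydroxylates the side chain of cholesterol to a secreted oxysterol, was at 0.32, 0.26 and 0.19 FPKM in control, 3.87, 3.70 and 4.41 with IL-1β, and 1.05, 1.14 and 1.71 in co-culture. Again each group lay apart from the other two. The mean rose from 0.257 ± 0.0651 to 3.99 ± 0.371, a ratio of 15.6 (log2 change 1.99 ± 0.11 SE, adjusted p = 3.23e-07), and was 1.30 ± 0.358 in co-culture, 3.07-fold below IL-1β (−1.13, adjusted p = 9.68e-05) and 5.06-fold above control (0.86, adjusted p = 2.86e-04). The log2(FPKM + 1) scale understates low genes: with 0.1 in place of 1, the change of Ch25h with IL-1β was 3.53 and that of co-culture against control 1.96. All 6 calls of this pair held in every alternative run. As levels, Cyp7b1 stood well above Ch25h in each group.

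**Figure D3:**
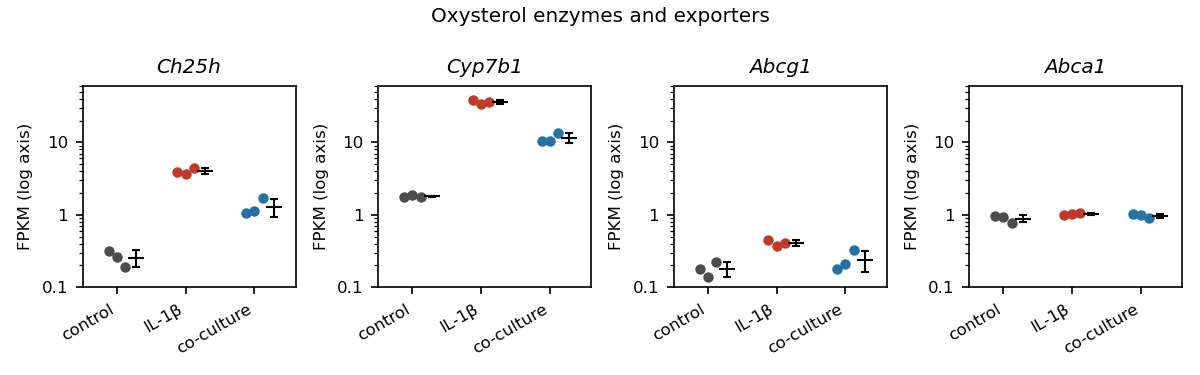
FPKM on a logarithmic axis of Ch25h, Cyp7b1, Abcg1 and Abca1 in each library (dots) of control, IL-1β and co-culture, with the mean and SD of 3 libraries beside each group. Ch25h and Cyp7b1 step up with IL-1β and part of the way down in co-culture, Abcg1 stays under 0.5 throughout, and Abca1 lies between 0.77 and 1.06 in all 9 libraries.

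Among the SREBP regulators, 2 of 5 rose and 1 fell with IL-1β (60% called, beside 46.7% of all tested genes). Insig1 (gene ID 64194), an SREBP target that anchors the SREBP complex in the endoplasmic reticulum, was at 13.96, 15.04 and 14.71 FPKM in control, 18.29, 20.88 and 21.26 with IL-1β, and 16.45, 15.02 and 15.37 in co-culture. The IL-1β libraries lay above all others, and those of co-culture overlapped control. Insig1 rose 1.38-fold with IL-1β (log2 change 0.44, adjusted p = 2.11e-04) and fell in co-culture against IL-1β (−0.35, adjusted p = 0.00298); against control the co-culture change was 0.09, with a 95% interval of −0.04 to 0.23. Insig2 (gene ID 288985), its paralogue, which is not a target of SREBPs in the way Insig1 is, was at 9.10, 8.41 and 8.38 in control, 17.25, 15.49 and 13.75 with IL-1β, and 12.46, 11.42 and 14.26 in co-culture. The control libraries were the lowest, and IL-1β and co-culture overlapped. The rise with IL-1β was 1.80-fold (0.77, adjusted p = 6.29e-05) and that of co-culture over control 1.47-fold (0.51, adjusted p = 0.00185). Between co-culture and IL-1β the change of Insig2 was −0.27 (adjusted p = 0.061), which passed the threshold when the third IL-1β or the third co-culture library was left out.

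Srebf1 (gene ID 78968) encodes the SREBP that favours fatty acid genes. It was at 12.35, 12.67 and 11.83 FPKM in control, 7.88, 8.96 and 7.93 with IL-1β, and 8.95, 9.29 and 9.30 in co-culture. All IL-1β and co-culture libraries lay below all controls. Srebf1 fell by 32.8% with IL-1β (log2 change −0.52, adjusted p = 2.8e-05) and lay 25.3% below control in co-culture by group means, from 12.3 ± 0.424 to 9.18 ± 0.199 (−0.38, adjusted p = 4.58e-04). Its change in co-culture against IL-1β was 0.14 (adjusted p = 0.0972), called once the second IL-1β library was left out. Srebf2 (gene ID 300095), the SREBP that favours cholesterol genes, was at 16.80, 18.22 and 17.18 in control, 18.15, 17.58 and 18.27 with IL-1β, and 17.10, 16.91 and 16.32 in co-culture, and passed the test in no comparison. The IL-1β values overlapped control, with a change of 0.05 and a 95% interval of −0.04 to 0.14. Scap, the sterol-sensing escort of the SREBPs, had means of 15.3, 15.2 and 15.5 in control, IL-1β and co-culture.

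The promoters of 5 genes whose values in every library are given are shown because they move in different directions: Insig1, Insig2 and Ch25h, which rose with IL-1β, Srebf1, which fell, and Hmgcs1, which was lower in co-culture. Each is the 250 bases before the annotated start on the gene's own strand, from RefSeq, assembly GRCr8, read 5′ to 3′. Capitals mark the boxes CCAAT, bound by NF-Y, which works beside SREBPs at many sterol genes, and the E-box CACGTG, on either strand; these 2 motifs do not overlap here.
Insig1, chr4:8057770-8058019, minus strand: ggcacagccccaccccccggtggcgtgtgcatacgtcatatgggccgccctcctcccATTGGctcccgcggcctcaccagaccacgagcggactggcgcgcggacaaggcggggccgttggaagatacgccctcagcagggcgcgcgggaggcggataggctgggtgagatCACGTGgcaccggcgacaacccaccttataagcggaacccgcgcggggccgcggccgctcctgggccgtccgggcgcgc
Insig2, chr13:35040099-35040348, minus strand: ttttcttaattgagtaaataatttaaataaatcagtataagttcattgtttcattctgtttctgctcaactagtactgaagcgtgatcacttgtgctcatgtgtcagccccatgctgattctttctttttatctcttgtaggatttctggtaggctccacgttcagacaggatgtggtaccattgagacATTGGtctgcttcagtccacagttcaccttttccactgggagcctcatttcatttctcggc
Srebf1, chr10:45529165-45529414, minus strand: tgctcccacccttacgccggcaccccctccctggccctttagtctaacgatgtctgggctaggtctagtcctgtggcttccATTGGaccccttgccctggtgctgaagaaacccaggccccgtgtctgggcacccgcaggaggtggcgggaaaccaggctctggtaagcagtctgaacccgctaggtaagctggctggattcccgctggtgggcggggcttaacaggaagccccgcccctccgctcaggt
Hmgcs1, chr2:53382054-53382303, plus strand: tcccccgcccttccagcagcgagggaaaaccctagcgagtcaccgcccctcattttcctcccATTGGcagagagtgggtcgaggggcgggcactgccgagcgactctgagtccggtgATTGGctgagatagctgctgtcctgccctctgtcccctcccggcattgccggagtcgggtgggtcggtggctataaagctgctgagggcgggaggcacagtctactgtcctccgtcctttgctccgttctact
Ch25h, chr1:241429367-241429616, minus strand: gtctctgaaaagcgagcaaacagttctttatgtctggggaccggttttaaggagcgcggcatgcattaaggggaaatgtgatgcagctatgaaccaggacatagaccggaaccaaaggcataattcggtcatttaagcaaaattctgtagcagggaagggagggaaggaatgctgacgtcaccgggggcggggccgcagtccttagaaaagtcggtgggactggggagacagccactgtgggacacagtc
Insig1 holds 1 CCAAT box, 193 bases before the start, and an E-box 79 bases before it. Insig2 has its box at 61 bases, Srebf1 at 169 bases, and Hmgcs1 has 2 boxes, at 188 and 133 bases. Ch25h has none of the 4 motifs searched. These were CCAAT (the NF-Y box), CACGTG (the E-box), CACCCCAC (the core of a sterol regulatory element) and GGACTTTCC (a site for NF-κB), each on both strands. A promoter was given for 34 of the 43 genes. CCAAT was present in 23 of these 34 (67.6%), beside 34.3% of 27457 promoters of the same length and 36.4% of the 9327 whose genes were tested. At least 2 boxes were present in 11 (32.4%), beside 9.77% and 13.4%. Of the 16 promoters of mevalonate and sterol enzymes, 13 held a box and 9 held 2 or more, up to 5 in Mvk and Nsdhl. CACGTG was present in 4 of 34 (11.8%: Insig1, Scap, Sc5d and Abca1), beside 5.79% and 8.38%. CACCCCAC was present in 1 (2.94%, Ebp), beside 2.24% and 2.17%, and GGACTTTCC in 0, beside 0.24% and 0.332%. A match describes the letters in this window, not occupancy by a factor.

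**Figure D4:**
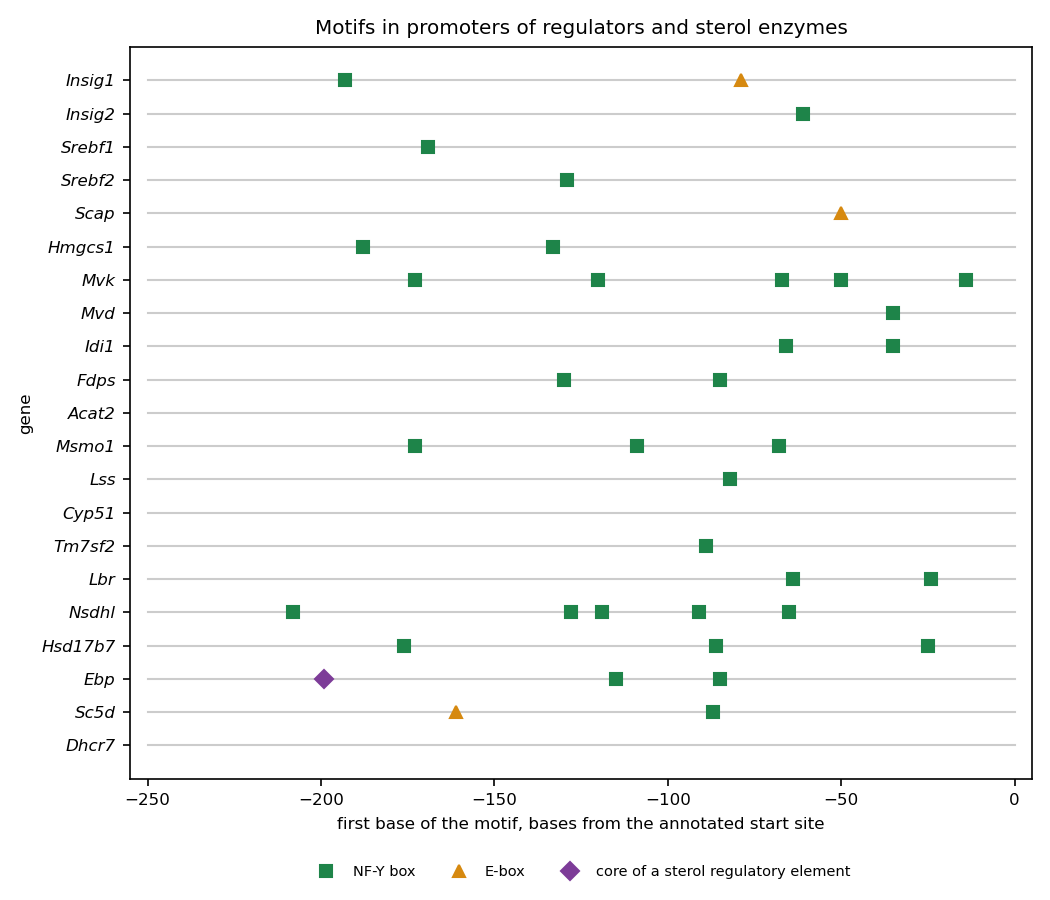
Position of the first base of each motif (x axis, bases from the annotated start site) in the 250 bases before the start of 21 SREBP regulators, mevalonate enzymes and sterol enzymes (y axis). Green squares are CCAAT boxes, orange triangles E-boxes and the purple diamond the sterol element core. Mvk and Nsdhl have 5 CCAAT boxes each. Scap has an E-box but no CCAAT box, and Acat2, Cyp51 and Dhcr7 have no motif.

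Of the 7 mevalonate genes, 1 rose with IL-1β, and 2 were lower in co-culture than with IL-1β. The called shares were 14.3% and 28.6%, beside 46.7% and 22.0% of all tested genes. Hmgcs1 (gene ID 29637), the synthase that commits acetyl units to the pathway, was at 27.44, 27.30 and 28.63 FPKM in control, 26.34, 27.57 and 26.67 with IL-1β, and 22.81, 22.35 and 23.69 in co-culture. Control and IL-1β overlapped, and the co-culture libraries were the lowest 3. Hmgcs1 fell by 14.6% in co-culture against IL-1β, from 26.9 ± 0.637 to 23.0 ± 0.681 (log2 change −0.22, adjusted p = 0.00227), and was lower than in control (−0.27, adjusted p = 3.8e-04). Its change with IL-1β was −0.05 (adjusted p = 0.32). Fdps (gene ID 83791), which joins isoprene units into farnesyl diphosphate and was the most abundant of these 7, was at 105.25, 111.78 and 106.11 in control, 120.60, 119.28 and 123.37 with IL-1β, and 110.21, 102.62 and 104.31 in co-culture. The IL-1β libraries lay above the rest, with a log2 change of 0.17 against control (adjusted p = 0.00315) and of −0.19 for co-culture against IL-1β (adjusted p = 0.00357). Idi1, which isomerises the activated isoprene unit, had means of 15.2, 14.9 and 13.0, with a change of −0.17 in co-culture against IL-1β (adjusted p = 0.0505) and of −0.21 against control (adjusted p = 0.0163). The first of these passed the threshold without the second IL-1β or the third co-culture library, and the second ended without the first control, the first co-culture or the second co-culture library. Acat2, which joins acetyl-CoA units, had means of 14.5, 16.0 and 15.0 and was not called, with an adjusted p of 0.0799 for IL-1β against control that passed without the third control library. The kinases Mvk (7.52, 8.43 and 7.17) and Pmvk (13.6, 14.2 and 13.8) and the decarboxylase Mvd (11.6, 12.2 and 12.3) were not called; Mvk was called lower in co-culture against IL-1β without the third co-culture library.

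Squalene and sterol enzymes showed small, mixed changes. Of 11 tested, 4 rose and 1 fell with IL-1β, and 4 were lower in co-culture than with IL-1β. Called shares were 45.5% and 36.4%, beside 46.7% and 22.0% of all tested genes. Sqle (gene ID 29230), the oxygenase that opens the sterol branch, was at 26.36, 25.94 and 26.93 FPKM in control, 27.09, 27.54 and 27.01 with IL-1β, and 25.67, 25.22 and 25.74 in co-culture. The 3 groups did not overlap, yet the spread between them was small: the change with IL-1β was 0.04 (95% interval −0.03 to 0.11) and that of co-culture against IL-1β −0.09 (adjusted p = 0.0652). The latter passed with no filter (adjusted p = 0.0486), with median-of-ratios scaling (0.0361) and with quantile normalization (0.0322), under which Sqle was also called lower than control (0.0399). Lss (gene ID 81681), which closes the sterol rings, was at 10.03, 9.41 and 10.65 in control, 12.56, 11.91 and 13.68 with IL-1β, and 10.74, 10.26 and 10.05 in co-culture. Its IL-1β libraries lay above all others, while co-culture overlapped control. It rose 1.27-fold with IL-1β (0.31, adjusted p = 0.00183) and was lower again in co-culture (−0.27, adjusted p = 0.0102). Fdft1, which makes squalene, had means of 21.2 ± 0.484, 23.8 ± 1.31 and 21.0 ± 0.296, with changes of 0.16 (adjusted p = 0.0122) and −0.17 (adjusted p = 0.0168). Hsd17b7, a sterol ketoreductase, had means of 5.82 ± 0.827, 7.23 ± 0.0723 and 5.82 ± 0.483, with changes of 0.28 (adjusted p = 0.0239) and −0.27 (adjusted p = 0.0476). Both rises ended with a common FPKM sum or quantile normalization. The co-culture call of Fdft1 ended without the first or the third IL-1β or the second co-culture library. The Hsd17b7 rise ended without the second or the third control or any 1 of the IL-1β libraries, and its co-culture call without the second control, any 1 of the IL-1β libraries, or the first or the third co-culture library, and also with no filter, no trend or either of those scalings.

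Cyp51, the demethylase that acts on lanosterol, fell with IL-1β from 48.6 ± 1.48 to 42.1 ± 0.877 FPKM (log2 change −0.20, adjusted p = 5.29e-04). It was 39.3 ± 0.430 in co-culture, where the change against IL-1β was −0.10 (adjusted p = 0.0601) and that against control −0.30 (adjusted p = 6.97e-05). Ebp, the isomerase of the sterol ring double bond, rose with IL-1β from 22.1 ± 1.20 to 28.2 ± 1.51 (0.34, adjusted p = 0.00144) and stayed above control in co-culture at 27.2 ± 2.01 (0.29, adjusted p = 0.00547). Msmo1, the methyl oxidase that removes methyl groups from early sterols, had means of 59.3 ± 3.21, 61.1 ± 1.49 and 54.2 ± 0.971; it was lower in co-culture than with IL-1β (−0.17, adjusted p = 0.0143) and than control (−0.12, adjusted p = 0.0382). The first of these calls ended without the third IL-1β library, and the second without the second or the third control, the first or the third IL-1β, or any 1 of the co-culture libraries, and also with no filter, no trend or the 6 libraries alone. Lbr, Nsdhl, Sc5d and Dhcr7, also enzymes of the sterol pathway, were not called in any comparison, with group means of 13.1 to 13.7, 15.4 to 17.4, 19.8 to 21.9 and 7.17 to 8.26. Sc5d came nearest with IL-1β, at −0.14 (adjusted p = 0.0512). It passed without the third control library, and against control in co-culture Lbr passed without the second control library and Dhcr7 without that library or the first of co-culture. Tm7sf2, a sterol reductase, was at 0.45 to 1.07 in control, 0.84 to 1.39 with IL-1β and 0.74 to 0.93 in co-culture and was not tested.

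Summed over all 19 mevalonate and sterol enzymes, the level was 447 to 460 FPKM in control (mean 452 ± 6.90), 471 to 478 with IL-1β (475 ± 4.03) and 421 to 439 in co-culture (431 ± 9.36). The 3 groups did not overlap on this scale. As a percentage of each library's FPKM sum, control (0.0578% to 0.0588%) and IL-1β (0.0575% to 0.0591%) overlapped and co-culture (0.0519% to 0.0541%) lay below both.

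**Figure D5:**
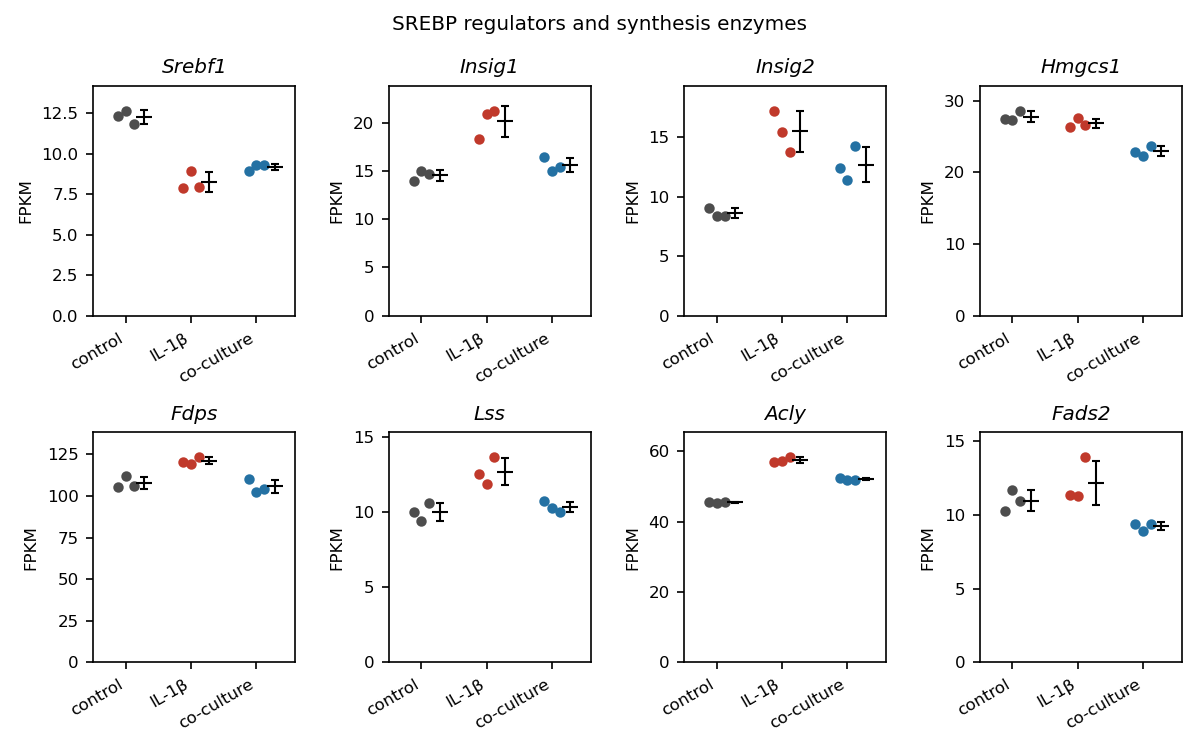
FPKM of 8 genes in each library (dots), with the mean and SD of 3 libraries beside each group; the y axes start at 0 and differ between panels. Srebf1 is lower in both IL-1β-treated groups, Insig1, Fdps and Lss are highest with IL-1β, and Hmgcs1 and Fads2 are lowest in co-culture.

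Sterol handling genes were higher with IL-1β for 3 of 4, and 2 of 4 were lower in co-culture than with IL-1β. That is 75% and 50% called, beside 46.7% and 22.0% of all tested genes. Npc2, the lysosomal carrier that takes cholesterol out of digested lipoprotein, was the most abundant gene of the list in every group by FPKM. It was at 115.69, 117.66 and 120.01 in control, 161.70, 151.45 and 154.52 with IL-1β, and 141.13, 134.13 and 134.43 in co-culture. The 3 groups stood apart, with co-culture in the middle. The rise with IL-1β was 1.32-fold (log2 change 0.40, adjusted p = 5.13e-06); the changes of co-culture were −0.19 against IL-1β (adjusted p = 0.00292) and 0.21 against control (adjusted p = 8.6e-04). Npc1, the membrane partner that receives this cholesterol, had means of 11.0 ± 0.325, 12.1 ± 0.542 and 11.6 ± 0.247. Its rise of 0.13 with IL-1β (adjusted p = 0.038) ended without the first or second control, the second or the third IL-1β or the second co-culture library, under all 3 other scalings, and with the 6 libraries alone. Stard4, a cytosolic sterol carrier, had means of 4.98 ± 0.0850, 5.83 ± 0.133 and 5.09 ± 0.222, with changes of 0.19 (adjusted p = 0.0102) and −0.16 (adjusted p = 0.0408). The first of these ended with a common FPKM sum or quantile normalization, and the second without any 1 of the control or IL-1β libraries, without the first or the third co-culture library, or with no filter, a common FPKM sum or the 6 libraries alone. Soat1, which esterifies cholesterol for storage, had means of 38.8, 39.1 and 40.5 and was not called.

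Among the LXR and export genes, 1 of 4 tested rose with IL-1β (25%, beside 46.7% of all tested genes called). Limma called 0 in co-culture against IL-1β (beside 22.0%) and 0 in co-culture against control (beside 33.9%). At an unadjusted limma p under 0.05, these counts were 0 and 1 (Nr1h3, higher), where 28.0% of all tested genes were higher and 15.5% lower than control. Nr1h3, the inducible LXR, had means of 2.51 ± 0.260, 3.50 ± 0.670 and 3.23 ± 0.277 FPKM; its rise of 0.35 with IL-1β (adjusted p = 0.025) ended with a common FPKM sum or quantile normalization, and without the second or the third control or the second or the third IL-1β library. Its change in co-culture against control was 0.27 (adjusted p = 0.0884), called without the first IL-1β library. Nr1h2, the broadly expressed LXR, had means of 20.2, 21.6 and 19.4 and was not called. Abca1 (gene ID 313210), the exporter that loads cholesterol on apolipoproteins, was at 0.96, 0.92 and 0.77 in control, 0.98, 1.02 and 1.06 with IL-1β, and 1.01, 1.00 and 0.90 in co-culture. The IL-1β libraries lay just above control and overlapped co-culture, with a change of 0.10 (95% interval −0.07 to 0.28) against control. Abcg1 (gene ID 85264), which exports cholesterol to lipoprotein particles, was at 0.18, 0.14 and 0.22 in control, 0.45, 0.37 and 0.41 with IL-1β, and 0.18, 0.21 and 0.33 in co-culture. The IL-1β libraries lay above all others at a level below the filter. When no filter was applied, the adjusted p was 0.00426 for IL-1β against control and 0.0428 for co-culture against IL-1β. Mylip, a ubiquitin ligase that LXRs raise to remove lipoprotein receptors, had means of 3.67, 3.84 and 3.69 and was not called.

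Of 8 fatty acid synthesis genes, 1 rose and 3 fell with IL-1β, and 2 were lower in co-culture than with IL-1β. The called shares were 50% and 25%, beside 46.7% and 22.0% of all tested genes. Acly, which makes the acetyl-CoA used for lipids, was at 45.47, 45.42 and 45.53 FPKM in control, 56.93, 57.14 and 58.34 with IL-1β, and 52.53, 51.85 and 51.94 in co-culture. The groups were far apart for their spread, with co-culture in the middle. Acly rose 1.26-fold with IL-1β (log2 change 0.33, adjusted p = 2.81e-06), was lower in co-culture than with IL-1β (−0.14, adjusted p = 0.00364) and higher than in control (0.19, adjusted p = 2.8e-04). Fasn (gene ID 50671), the fatty acid synthase, was at 21.21, 21.22 and 21.36 in control, 19.65, 19.99 and 19.64 with IL-1β, and 21.37, 20.81 and 19.80 in co-culture. Control and IL-1β stood apart, and co-culture spanned both. Its change of −0.10 with IL-1β (adjusted p = 0.0418) ended without any 1 of the control or IL-1β libraries and without the second co-culture library. Scd (gene ID 246074), a desaturase that makes monounsaturated fatty acids, was at 4.12, 4.13 and 4.17 in control, 2.66, 3.25 and 3.65 with IL-1β, and 2.89, 2.76 and 3.00 in co-culture. All libraries with IL-1β, co-culture included, lay below control, and those of IL-1β spread widely. Scd fell by 0.30 on the log2 scale with IL-1β (adjusted p = 0.014) and was lower in co-culture than in control (−0.40, adjusted p = 0.00448). Scd2, a related desaturase counted in a neighbouring list below, stood far higher, with means of 103 ± 0.797, 96.6 ± 1.51 and 88.5 ± 0.160. Scd2 was lower with IL-1β than in control (−0.09, limma adjusted p = 0.00984). In co-culture it was lower than with IL-1β (−0.13, limma adjusted p = 0.00446) and than in control (−0.22, limma adjusted p = 7.83e-05).

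Fads1, a desaturase of polyunsaturated fatty acids, fell from 22.7 ± 0.340 in control to 19.0 ± 0.353 FPKM with IL-1β (log2 change −0.24, adjusted p = 5.65e-04) and was 19.6 ± 0.836 in co-culture, also lower than control (−0.20, adjusted p = 0.00266). Its partner Fads2 was at 10.28, 11.66 and 10.95 in control, 11.31, 11.29 and 13.91 with IL-1β, and 9.39, 8.89 and 9.38 in co-culture. Control and IL-1β overlapped and co-culture was lowest. Fads2 fell by 24.2% in co-culture against IL-1β (−0.36, adjusted p = 0.00868), by ratio of means the largest decrease among the 41 listed genes that were tested, after Ch25h and Cyp7b1. That rank leans on the third IL-1β library, at 13.91. Over the alternatives the change of Fads2 ran from −0.41 to −0.27, and that of Insig1 from −0.41 to −0.31. Against control the Fads2 change of −0.23 (adjusted p = 0.0474) ended without the second or the third control or any 1 of the co-culture libraries, and with no filter or no trend. Elovl6, which lengthens saturated chains, had means of 2.16 ± 0.263, 1.40 ± 0.501 and 1.39 ± 0.435, the lowest ratio of means to control in the list. Its changes of −0.42 with IL-1β (adjusted p = 0.0618) and −0.42 in co-culture (adjusted p = 0.0773) missed the threshold, and both passed without the third IL-1β or the third co-culture library. Acaca, the carboxylase that makes malonyl-CoA (5.06, 4.95 and 5.18), and Acss2, which activates acetate (5.20, 4.96 and 4.96), were not called.

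Set directly against control, co-cultured cells gave 14 called genes of 41, or 34.1%, beside 33.9% of all tested genes. Of them 6 were higher (14.6%, beside 21.8%) and 8 lower (19.5%, beside 12.2%). The 6 were Ch25h, Cyp7b1, Insig2, Ebp, Npc2 and Acly. The 8 were Srebf1, Hmgcs1, Idi1, Cyp51, Msmo1, Scd, Fads1 and Fads2. Without the second co-culture library 5 were lower. With a common FPKM sum 6 were higher and 11 lower, beside 13.1% and 17.1% of all tested genes, and quantile normalization gave the same 2 counts beside 14.0% and 17.7%. At a log2 change of 0.5 or more, 3 genes passed (7.32%, beside 7.07%): Cyp7b1, Ch25h and Insig2. Libraries of the 2 groups did not overlap for 17 of 41 genes (41.5%, beside 46.5%), and the median change was 0.00, against 0.04 over all tested genes. This comparison shares its libraries with the other 2.

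Beyond the 43 genes, 6 lists of neighbouring pathways hold 96 genes, of which 85 were tested. IL-1β against control called 49 of the 85 (57.6%, beside 46.7% of all tested genes). Of them 30 were higher and 19 lower, beside 26.5% and 20.2% of all tested genes. Co-culture against IL-1β called 28 (32.9%, beside 22.0%), 11 higher and 17 lower (beside 11.9% and 10.1%). Co-culture against control called 34 (40%, beside 33.9%), 27 higher and 7 lower (beside 21.8% and 12.2%). With a common FPKM sum, the shares of all tested genes for IL-1β against control were 19.2% higher and 27.2% lower. Counts by direction of these lists were not taken under other scalings. The lists were chosen with earlier results of these data known. Of 10 tested genes of SREBP maturation and degradation, 2 rose and 4 fell with IL-1β, and 4 were called in co-culture against IL-1β, each of them higher. The called shares were 60% and 40%, beside 46.7% and 22.0% of all tested genes. Aup1 and Erlin1, which belong to the membrane complexes that extract sterol-regulated proteins for degradation, fell with IL-1β (log2 change −0.28, adjusted p = 3.87e-05, and −0.16, adjusted p = 0.00279). Both were higher in co-culture than with IL-1β (0.16, adjusted p = 0.0044, and 0.20, adjusted p = 0.0019). Rnf145, a ubiquitin ligase of the same membrane, rose with IL-1β by 0.17 (adjusted p = 7.51e-04). Of 13 genes of isoprenoid branches and electron donors, 1 rose and 4 fell with IL-1β, and 1 was higher and 1 lower in co-culture than with IL-1β. Here 38.5% and 15.4% were called, beside the same 46.7% and 22.0%. Por, which passes electrons to the cytochrome P450 enzymes such as Cyp51 and Cyp7b1, rose from 36.8 ± 0.321 to 47.7 ± 0.360 FPKM (0.37, adjusted p = 3.75e-05) and was 36.6 ± 2.10 in co-culture (−0.37 against IL-1β, adjusted p = 1.33e-04). Pdss1, which builds the side chain of coenzyme Q, went the other way, from 7.96 ± 0.824 to 6.01 ± 0.645 with IL-1β (adjusted p = 0.00566) and 8.33 ± 0.256 in co-culture (adjusted p = 0.00571 against IL-1β). Cyb5r3, a reductase that supplies sterol and desaturase reactions, fell with IL-1β by 0.21 on the log2 scale (adjusted p = 0.00148).

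Of 15 tested genes of sterol uptake and movement, 5 rose and 4 fell with IL-1β, and 1 was higher and 3 lower in co-culture than with IL-1β. The called shares were 60% and 26.7%, beside 46.7% and 22.0% of all tested genes. Lrp1, a receptor that takes up lipoproteins and proteases, rose 1.48-fold with IL-1β, from 37.7 ± 1.29 to 55.9 ± 1.44 FPKM (log2 change 0.56, adjusted p = 4.95e-07), and was 42.4 ± 0.301 in co-culture (−0.39 against IL-1β, adjusted p = 3.52e-05). Cav1, the coat protein of cholesterol-rich caveolae, fell from 243 ± 4.15 to 163 ± 2.90 (−0.57, adjusted p = 7.42e-08) and was 195 ± 4.38 in co-culture (0.26 against IL-1β, adjusted p = 1.27e-04). Stard5, a sterol carrier, rose 1.56-fold (0.59, adjusted p = 3.58e-05). Gramd1b, 1 of the 5 that rose, had means of 0.903, 1.70 and 1.26, so its place in these counts follows in part from the filter. Of 6 tested oxysterol and LXR partners, 3 rose with IL-1β and 3 were lower in co-culture than with IL-1β. That is 50% in each, beside the same 46.7% and 22.0%. Hsd3b7, which acts after Cyp7b1 in oxysterol breakdown, rose 1.90-fold with IL-1β, from 3.69 ± 0.164 to 7.01 ± 0.605 (0.77, adjusted p = 3.38e-05), and was 5.50 ± 0.654 in co-culture (−0.30, adjusted p = 0.0256). Lpcat3, a phospholipid remodelling enzyme that LXRs raise, rose 1.40-fold (0.48, adjusted p = 2.41e-06) and was lower in co-culture than with IL-1β (−0.12, adjusted p = 0.0329). Rora, a nuclear receptor that binds sterols, had means of 0.900, 1.32 and 0.950 and passed the filter through the IL-1β libraries, where it is high, so its place in these counts follows in part from the filter. Its changes were 0.29 (adjusted p = 0.0132, and 0.108 with quantile normalization) and −0.25 (adjusted p = 0.0469). The co-culture call of Hsd3b7 ended without the first or the third IL-1β or the first or the third co-culture library, and with no filter or the 6 libraries alone. That of Lpcat3 ended without any 1 of the IL-1β or the first or the third co-culture library, and with a common FPKM sum, no trend or the 6 libraries alone. That of Rora ended without any 1 of the 9 libraries, with either other pseudocount, a common FPKM sum, quantile normalization or the 6 libraries alone.

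Of 23 tested genes of fatty acid elongation, activation and glycerolipid synthesis, 9 rose and 6 fell with IL-1β, and 5 were higher and 5 lower in co-culture than with IL-1β. The called shares were 65.2% and 43.5%, beside 46.7% and 22.0% of all tested genes. Plin2, the coat protein of lipid droplets, rose 2.22-fold with IL-1β, from 81.0 ± 1.94 to 179.5 ± 5.72 FPKM (log2 change 1.14, adjusted p = 2.42e-09), and was 131 ± 4.07 in co-culture (−0.45 against IL-1β, adjusted p = 1.41e-05; 0.69 against control, adjusted p = 2.4e-07). Dgat2, which makes triglyceride, rose 1.93-fold, from 4.83 ± 0.471 to 9.35 ± 0.475 (0.83, adjusted p = 6.59e-06). It was 7.67 ± 0.481 in co-culture (−0.25 against IL-1β, adjusted p = 0.0286), a call that ended without the first or second IL-1β or the second or the third co-culture library, or with no filter. Acsl3, which activates fatty acids at growing droplets, fell from 40.3 ± 0.505 to 29.4 ± 0.874 with IL-1β (−0.44, adjusted p = 1.69e-06) and was 34.3 ± 0.365 in co-culture (0.21 against IL-1β, adjusted p = 0.00103). Beside these stand the adipocyte marker sums and the Fabp4 levels given above, highest with IL-1β, while Adipoq, Plin1, Plin4, Lep and Cidec were under 1 in every library. Pparg, of the same marker list, was highest in control. Of 18 tested genes of fatty acid oxidation, 10 rose and 1 fell with IL-1β, 5 were lower in co-culture than with IL-1β, and 11 were higher in co-culture than in control. Called shares were 61.1%, 27.8% and 61.1%, beside 46.7%, 22.0% and 33.9% of all tested genes. Of all tested genes, 26.5% were higher with IL-1β, 10.1% lower in co-culture than with IL-1β and 21.8% higher in co-culture than in control. Decr1, Acadl and Hadha, enzymes of mitochondrial β-oxidation, rose 1.39-, 1.36- and 1.28-fold with IL-1β (adjusted p = 3.53e-06, 8.96e-07 and 4.04e-06). In co-culture Acadl was lower than with IL-1β (−0.14, adjusted p = 0.00827), and the changes of Decr1 (−0.10, adjusted p = 0.0827) and Hadha (−0.02, adjusted p = 0.646) were not called.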

How the data were processed

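The authors deposited 1 table of FPKM per gene for the 9 libraries, per the file headers. FPKM is normalized for library size and transcript length, so the read depth is unknown and no count test was used. A mouse build, GRCm38, stands in the submitters' processing notes of these rat samples; the gene identifiers of all 43 genes carried the same symbols in the rat RefSeq table of GRCr8, and no aligner or counter is named. Genes that reached 1 FPKM in 3 or more libraries were taken as log2(FPKM + 1) and fitted by group with limma 3.58.1 (R 4.3.3), with a mean-variance trend, and p-values were adjusted by Benjamini-Hochberg over 11732 genes. All tests are two-sided. The fit was tested on simulated data in which 200 genes were changed. Far more genes were called here, so that check gives no error rates for these data. Members and lists were chosen with earlier results of these data known. Values in every library were set by rule for Srebf1, Srebf2, Insig1, Hmgcs1, Sqle, Abca1, Abcg1, Ch25h, Cyp7b1, Fasn, Scd and genes called with a log2 change of at least 0.5; those of Fdps, Lss, Npc2, Acly and Fads2 were added after their values were seen. Of each neighbouring list, the 3 genes with the smallest p were named. Scd2 and Gramd1b were named besides, after their values were seen. The alternatives were 2 other pseudocounts, 2 other filters, 3 other scalings, no trend, the 6 libraries compared alone, a replicate block and each library left out.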

Additional observations from a re-analysis of the deposited data

How the results depend on the processing

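The 19 alternatives turned the sign of no called gene of the list, and 13 of 19 calls of IL-1β against control, 9 of 13 of co-culture against IL-1β and 11 of 14 of co-culture against control held in every one run. With a common FPKM sum or quantile normalization, 9 genes in each were higher with IL-1β, where the main count was 14; the median change over all tested genes moved from 0.0233 to −0.0355 and −0.0388 with them. With each library left out in turn, the calls ranged from 15 to 20, 10 to 14 and 11 to 14 in the 3 comparisons; the number higher in co-culture against IL-1β ranged from 0 to 1, and the number lower in co-culture against control from 5 to 8. Of 77 pairs of a gene and a comparison that were not called, 34 changed sign in at least 1 alternative, and the largest main log2 change among them was 0.10 either way: 17 with a common FPKM sum, 9 with median-of-ratios scaling and 12 with quantile normalization. Among them were Sqle (−0.02) and Srebf2 (−0.02) for IL-1β against control with a common FPKM sum, and Abca1 with quantile normalization (−0.02 for IL-1β against control and −0.03 for co-culture against control); the cause was not tested. Over all tested genes, deviations from group means correlated at −0.091 to 0.085 between libraries of the same number and −0.077 to 0.089 between different numbers. With 3 libraries per group, this cannot tell whether the numbers pair the samples. With a replicate block 18, 12 and 13 genes were called in the 3 comparisons. In that order, it lost Fasn and Npc1, Hsd17b7 and Stard4, and Fads2 and Msmo1, and gained Elovl6, Nr1h2 and Elovl6. Read depth is unknown, so the counting error of genes near 1 FPKM, such as Abca1, Abcg1 and Ch25h in control, could not be given.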
